A study of Mus musculus with 14 samples.

Results

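The genes described here are the splicing factor and hnRNP genes of the mouse, taken as every protein-coding gene whose symbol begins with Hnrnp, Srsf, Snrp, Sf3a or Sf3b and whose expected counts over the 14 libraries sum to at least 140. This rule found 52 of the 29713 genes in the files, and all 52 symbols with these beginnings met it. The set holds 20 hnRNP genes, 11 genes of SR proteins, 8 genes of Sm core proteins, 4 genes of other proteins of the U1 and U2 particles, 3 SF3a genes and 6 SF3b genes. The lowest was Srsf12, with a summed expected count of 213, and the highest was Hnrnpa2b1, with 97799. All 52 passed the filter on low counts, so every count below is out of the whole set.

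RNA was sequenced from cultured neural stem cells (NSC) of the OG2 mouse strain, in which a fluorescent reporter is driven by regulatory sequence of Pou5f1. Cells of passage 8 were taken at 4 stages, namely undifferentiated and after 2, 4 and 8 days of differentiation, each with naloxone, with DAMGO or as NC, an abbreviation the labels do not spell out and which is taken here as the control, giving 12 libraries. Opioid receptors are blocked by naloxone, while the peptide DAMGO activates the mu receptor. A passage 13 library and a passage 8 library of NSC have no named treatment and are called the reference libraries here. No condition had more than 1 library, doses are not given in the labels, and nothing says which cultures were separate. A stage is therefore given as 3 libraries, 1 per treatment, and the stage and drug tests take their spread from an additive fit of stage plus treatment across all 12 (other fits are named in the methods), so p-values measure only the spread between these libraries.

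Introns are removed by the spliceosome, whose snRNP particles each carry a ring of Sm proteins around a small nuclear RNA. The U1 particle binds the start of the intron and the U2 particle, with SF3a and SF3b, binds the branch site. SR proteins mostly promote the use of nearby exons, hnRNP proteins coat the nascent transcript and often oppose them, and the balance of the 2 kinds is a known regulator of alternative splicing in neural cells. Many of these genes, SR genes above all, also control their own mRNA through exons that lead to its decay.

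Libraries held 4143030 to 9070533 expected counts. Levels are given as CPM, counts relative to a TMM-scaled library size, on which scale a gene with 3 counts stood at 0.354 to 0.693 CPM depending on the library. Levels of different genes are compared in TPM, which is per transcript length. The summed level of 13 neural stem and progenitor markers lay between 9370 and 9540 CPM at day 8, against 9020 to 9350 CPM in undifferentiated libraries, so the labelled cell type carried its markers. The summed level of 13 proliferation genes was 193 to 230 CPM at day 8, against 4930 to 5140 CPM in undifferentiated libraries, and all 13 fell. The summed level of 10 astrocyte markers was 35000 to 36900 CPM at day 8, against 1270 to 1330 CPM in undifferentiated libraries. Of 7 microglia markers 2 were at 0 in all 14 libraries, and the 7 together summed to at most 1.81 CPM. Proliferation genes summed to 399 to 445 CPM at day 2 and 208 to 225 CPM at day 4, and astrocyte markers to 7060 to 8070 CPM at day 2 and 10300 to 10700 CPM at day 4. The 10 neuron markers summed to 1320 to 1350, 813 to 1920, 2080 to 2170 and 513 to 672 CPM in undifferentiated, day 2, day 4 and day 8 libraries, and the 10 oligodendrocyte lineage markers to 291 to 324, 1600 to 1740, 2290 to 2320 and 1230 to 1320 CPM. Most of the neuron sum was Map2, with a mean of 1230 CPM in undifferentiated libraries and 323 CPM at day 8. Elavl3 and Snap25 were also lower at day 8, and Syt1 was near its undifferentiated level. By contrast Tubb3 (17.2 and 106 CPM), Dcx (12 and 80.3), Rbfox3 (1.08 and 12.7), Stmn2 (0.318 and 5.78) and Gad1 (17 and 25.2) were higher at day 8. Slc17a6 was near 0 throughout. The 8 markers of endothelium and mural cells summed to 137 to 174 CPM at day 8, against 3.02 to 8.41 CPM in undifferentiated libraries. Most of that day 8 sum was Pdgfrb, with means of 0.365 CPM in undifferentiated libraries and 97.7 CPM at day 8. Acta2 (2.86 and 33.4 CPM) and Kdr (1.99 and 20.5 CPM) were also higher. Of the 8, 2 (Cdh5 and Cldn5) were at 0 in all 14 libraries. Pecam1 (0.308 and 0.199 CPM) and Des (0.183 and 0 CPM) did not rise, and Rgs5 was low (0.116 and 0.363 CPM). The part of these markers in the changes of splicing genes was not tested. In bulk samples, fewer cells of a type and less RNA per cell cannot be told apart.

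At day 8 the set as a whole was lower. Of the 52 genes 40 fell and 4 rose at day 8 against undifferentiated (edgeR quasi-likelihood test, Benjamini-Hochberg adjusted p below 0.05), and 8 did not pass the threshold. Of all 13144 genes tested, 38.5% fell and 41.6% rose in the same comparison, 80.1% in either direction. The median log2 fold change was -0.93 over the 52 genes and 0.05 over all genes tested. In 24 of the 52 the fall was at least 2-fold, and no rise was that large. Of all 13144 genes tested, 3138 fell and 3103 rose at least 2-fold past the threshold. The day 8 libraries lay wholly below the undifferentiated libraries for 43 of the 52 genes, against 40.2% of all genes tested, and wholly above them for 4, against 43.3%. Together the 52 genes held 0.731% of all TPM at day 8 and 1.91% in undifferentiated cells. The same direction was seen within each treatment, where 44 of 52 genes were lower at day 8 with naloxone, 48 with DAMGO and 44 with NC.

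**Figure D1:**
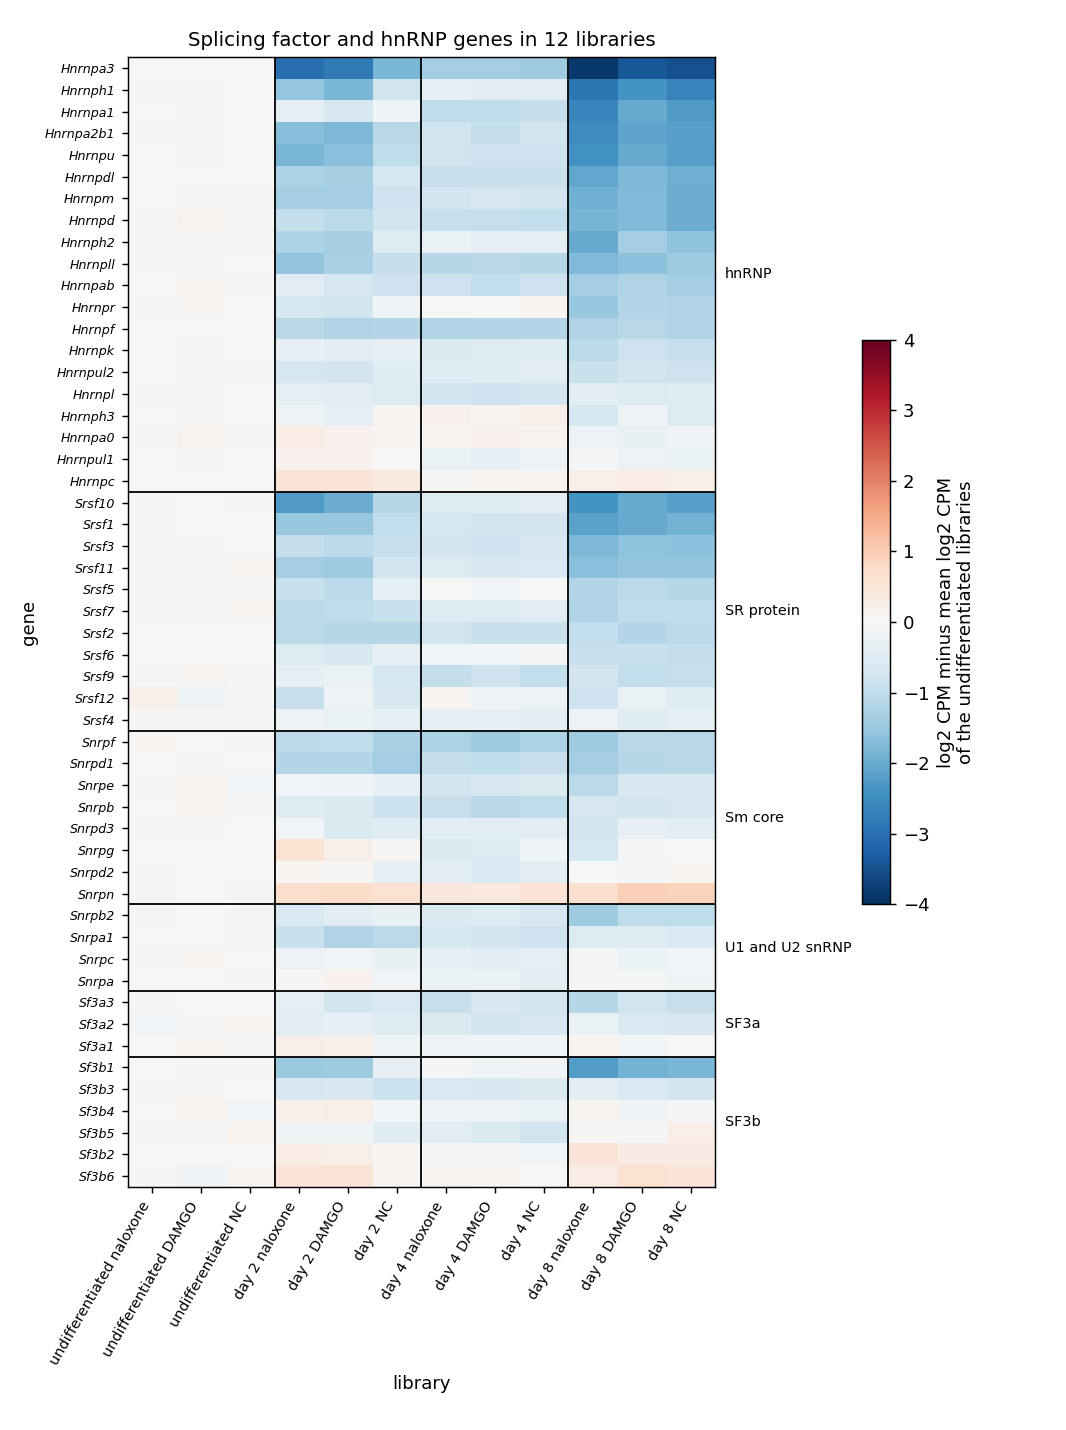
Level of each of the 52 genes (rows, by family) in the 12 libraries of the drug experiment (columns), as log2 CPM minus the mean log2 CPM of the 3 undifferentiated libraries. Blue is lower and red is higher; most hnRNP and SR genes are blue at day 8, Snrpn is red at day 2, day 4 and day 8, and the day 2 naloxone and DAMGO libraries are deeper blue than the day 2 NC library for genes such as Hnrnpa3, Srsf10 and Sf3b1.

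Promoters are printed for the gene with the largest fall at day 8 (Hnrnpa3), the gene with the smallest p (Srsf3), and an SF3b gene and an hnRNP gene that rose (Sf3b2 and Hnrnpc). They run from 250 bases before to 50 bases after the start, in RefSeq's GRCm38.p6 table, 5′ to 3′ on the gene's strand. Capitals mark matches on either strand to 7 motifs. The CCAAT box was searched by the letters of its name, and the motif of ETS factors as CCGGAAG. The GC box, bound by Sp factors, was searched as GGGCGG. The E-box of MYC and USF factors was searched as CACGTG. The TATA box was searched as TATAAA, and the motif of E2F factors, known from cell cycle genes, was searched as TTCCCGC. The last was the palindromic NRF1 motif. The regions are chr2:75659009-75659308 on the plus strand, chr17:29032410-29032709 on the plus strand, chr19:5295408-5295707 on the minus strand and chr14:52103972-52104271 on the minus strand.
Hnrnpa3: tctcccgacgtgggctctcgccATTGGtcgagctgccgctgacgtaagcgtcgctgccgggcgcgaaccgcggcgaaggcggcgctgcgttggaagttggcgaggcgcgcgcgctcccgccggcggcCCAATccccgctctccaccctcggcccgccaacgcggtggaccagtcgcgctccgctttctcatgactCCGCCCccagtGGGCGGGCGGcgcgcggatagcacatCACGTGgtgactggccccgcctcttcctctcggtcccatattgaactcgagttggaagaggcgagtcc
Srsf3: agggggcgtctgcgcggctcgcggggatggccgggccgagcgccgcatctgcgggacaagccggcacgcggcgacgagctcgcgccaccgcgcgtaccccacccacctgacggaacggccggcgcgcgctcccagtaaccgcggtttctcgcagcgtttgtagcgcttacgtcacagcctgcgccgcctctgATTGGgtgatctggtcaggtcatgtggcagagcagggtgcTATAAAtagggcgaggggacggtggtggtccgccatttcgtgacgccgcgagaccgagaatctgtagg
Sf3b2: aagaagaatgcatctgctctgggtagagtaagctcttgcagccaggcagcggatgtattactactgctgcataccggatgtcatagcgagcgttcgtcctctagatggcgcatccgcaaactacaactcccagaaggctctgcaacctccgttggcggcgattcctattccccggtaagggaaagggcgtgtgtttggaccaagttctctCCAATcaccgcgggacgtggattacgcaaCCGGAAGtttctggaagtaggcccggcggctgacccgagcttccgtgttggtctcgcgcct
Hnrnpc: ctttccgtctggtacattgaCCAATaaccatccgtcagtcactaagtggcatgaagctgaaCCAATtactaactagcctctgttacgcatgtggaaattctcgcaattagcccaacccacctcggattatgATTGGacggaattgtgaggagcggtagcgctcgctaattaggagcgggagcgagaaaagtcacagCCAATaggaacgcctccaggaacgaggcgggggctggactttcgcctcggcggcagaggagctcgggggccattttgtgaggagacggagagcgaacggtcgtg

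The Hnrnpa3 window held CCAAT boxes, GC boxes (a pair of them overlapping) and an E-box. Srsf3 had a CCAAT box and a TATA box, Sf3b2 a CCAAT box and an ETS motif, and Hnrnpc CCAAT boxes alone. Promoters were matched for 46 of the 52 genes. The ETS motif was found in 16 of the 46 (34.8%), against 18.4% of 10056 promoters of genes tested and 9.1% of 27025 promoters in the table. The CCAAT box was found in 47.8% of the 46, against 39.5% of genes tested and 38.0% of the table, and the GC box in 69.6%, against 66.5% and 35.9%. The E2F motif was in 10.9% (genes tested 8.8%, all promoters 4.7%), the TATA box in 13.0% (6.3%, 14.2%), the E-box in 10.9% (10.3%, 7.2%) and the NRF1 motif in 0 of 46 (2.2%, 1.0%). Among the 36 matched genes that fell at day 8, 11 had the ETS motif and 18 the CCAAT box; among the other 10, 5 had the ETS motif and 4 the CCAAT box. Letters of different motifs did not overlap in the windows printed. These matches are letters in a window and show no binding.

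At day 8, 19 of the 20 hnRNP genes fell and only Hnrnpc rose, with a median log2 fold change of -1.46, the lowest of the 6 families on this scale. At day 2 their median was -0.81, against -0.98 for the SR genes, and with the GC and length trend described below removed it was -0.83 at day 8, against -1.04 for the SR genes and -0.87 for the SF3a genes. Their summed level was 11760 ± 252, 6586 ± 949, 7904 ± 208 and 3589 ± 247 TPM in undifferentiated, day 2, day 4 and day 8 cells (SD, n = 3 libraries each). In TPM it was thus lowest at day 8 and higher at day 4 than at day 2. In CPM the day 2 sums were 6789, 6384 and 7966 with naloxone, DAMGO and NC, and the day 4 sums were 7642, 7532 and 7738. On that scale the day 2 NC library lay above every day 4 library, and the day 2 drug libraries lay below them.

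Hnrnpa3, a relative of the splicing repressor hnRNP A1 (GRCm38 chr2:75659261-75669407, plus strand), had 1247, 1268 and 1280 CPM in the undifferentiated naloxone, DAMGO and NC libraries. It had 158, 177 and 356 CPM at day 2, 479.5, 484 and 469.5 CPM at day 4 and 87.5, 121 and 111 CPM at day 8 in the same 3 treatments. Every differentiating library lay below every undifferentiated library, and the day 4 libraries lay above all of day 2 and day 8. The log2 fold change at day 8 was -3.59 ± 0.24 (SE; adjusted p = 2.36e-07), the largest of the 52. Its counts were not whole in any of the 14 libraries, so part of its reads was shared with other annotated transcripts and its level depends on how RSEM divided them.

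Hnrnph1, which binds runs of G, had 556, 601 and 591 CPM in undifferentiated libraries with naloxone, DAMGO and NC, 198, 165 and 332 CPM at day 2, 448, 427 and 423 CPM at day 4 and 78.1, 110.2 and 91.8 CPM at day 8. The 4 stages did not overlap, and the day 2 NC library lay well above the day 2 drug libraries. The change at day 8 was -2.65 ± 0.21 (SE; adjusted p = 1.01e-06). Hnrnpa1, a well studied splicing repressor, had 1315, 1383 and 1321 CPM in undifferentiated libraries, 1034, 859 and 1199 at day 2, 661, 659 and 691 at day 4 and 218.5, 333.5 and 276 at day 8. Its level stepped down at each stage with no overlap, and its log2 fold change at day 8 was -2.29 ± 0.15 (SE; adjusted p = 1.85e-07). Hnrnpa2b1, which also carries RNA to dendrites and reads methylated adenosines, had 1867, 1987 and 1942 CPM, 589.8, 561 and 891 CPM, 1107, 992 and 1122 CPM and 344, 445 and 425 CPM at the same stages. Its day 4 libraries were above those of day 2, and its day 8 change was -2.26 ± 0.14 (SE; adjusted p = 1.66e-07).

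Hnrnpf, a close relative of Hnrnph1, followed another course. It had 819, 809 and 830.2 CPM in undifferentiated libraries with naloxone, DAMGO and NC, 377.5, 359 and 363 CPM at day 2, 352, 365 and 363.5 CPM at day 4 and 354.5, 381 and 358 CPM at day 8. It was already at its later level by day 2, the libraries of the 3 differentiating stages overlapped, and the log2 fold changes at day 2, day 4 and day 8 were -1.17, -1.19 and -1.17, each with an SE of 0.06. Other large falls at day 8 were those of Hnrnpu (also known as scaffold attachment factor A), with a log2 fold change of -2.21, Hnrnpdl at -1.94, Hnrnpm at -1.89 and Hnrnpd (AUF1, which binds AU-rich elements of unstable mRNAs) at -1.87.

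Hnrnpc, which binds runs of U and packages long nascent transcripts, had 380.5, 386 and 383 CPM in undifferentiated libraries with naloxone, DAMGO and NC, 553, 543 and 487 CPM at day 2, 395.5, 405 and 409 CPM at day 4 and 447.5, 474 and 455.5 CPM at day 8. All libraries of the 3 differentiating stages lay above all undifferentiated libraries. It rose at day 2, by 0.45 ± 0.06 (SE; adjusted p = 9.8e-05), and at day 8, by 0.26 ± 0.06 (SE; adjusted p = 0.00293), on the log2 scale. In TPM its levels were 281, 293.5 and 278 at day 8 and 273, 277 and 276 in undifferentiated libraries, and limma on log2(TPM + 1) gave a change of 0.05 that did not pass the threshold (adjusted p = 0.441). Hnrnpul1, which takes part in the DNA damage response, fell least, with 207, 186 and 183 CPM at day 8 and 217, 226 and 217 CPM in undifferentiated libraries, a log2 fold change of -0.20 ± 0.07 (SE; adjusted p = 0.0214).

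**Figure D2:**
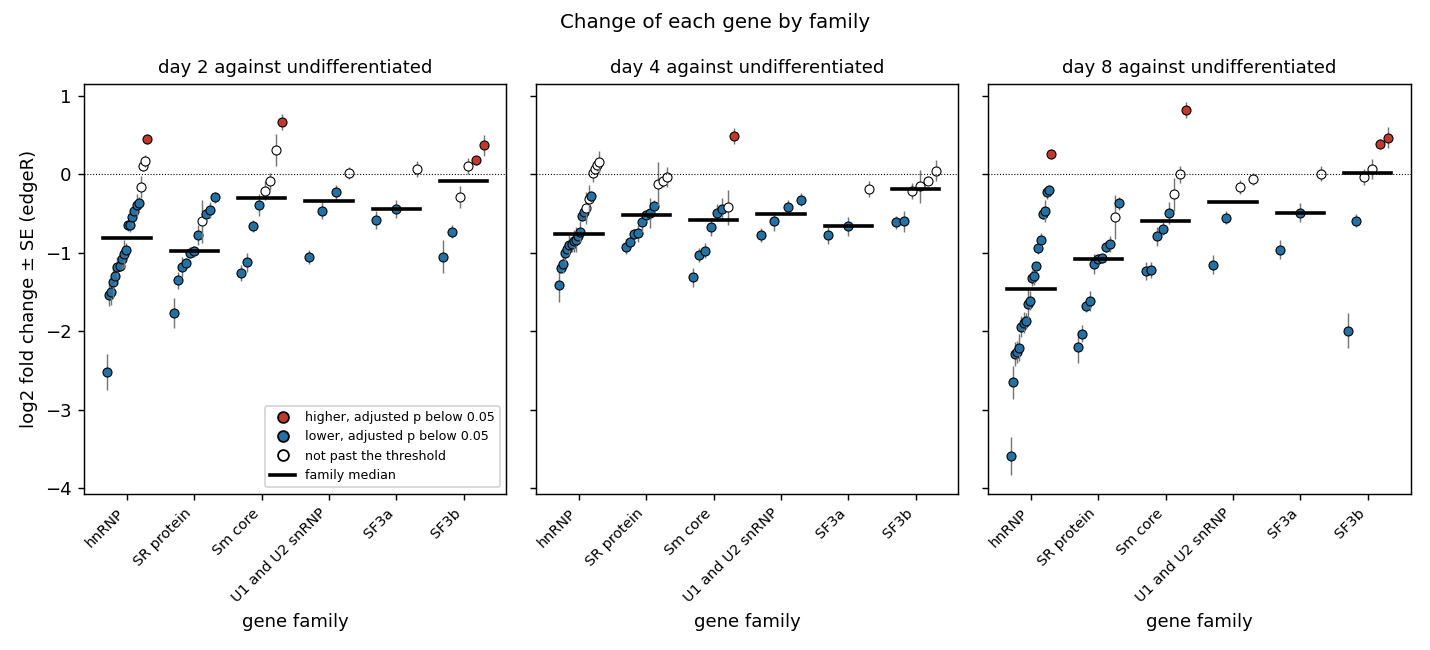
Log2 fold change of each of the 52 genes (points, bars ± SE from edgeR) at day 2, day 4 and day 8 against undifferentiated, by family, with the family median as a line. The hnRNP and SR medians are the lowest at day 8 (-1.46 and -1.08), and the SF3b median is at 0.02 with genes far apart on either side.

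Of the 11 SR genes 10 fell at day 8 and Srsf12 did not pass the threshold, with a median log2 fold change of -1.08. The summed level was 3200 ± 62.2, 1687 ± 250, 2530 ± 67.6 and 1142 ± 18.3 TPM in undifferentiated, day 2, day 4 and day 8 cells (SD, n = 3 libraries each). Srsf3, the smallest SR protein and an adaptor for mRNA export, had 581, 544 and 568 CPM in undifferentiated libraries with naloxone, DAMGO and NC, 291, 274 and 301 CPM at day 2, 332, 317 and 353 CPM at day 4 and 161, 186.5 and 181 CPM at day 8. No 2 of the stages overlapped, and the log2 fold change at day 8 was -1.68 ± 0.07 (SE; adjusted p = 9.89e-09). Its counts were not whole in 13 of 14 libraries.

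Srsf10, an SR protein that turns into a general repressor when it is dephosphorylated, had 238, 246 and 252 CPM in undifferentiated libraries with naloxone, DAMGO and NC, 51.2, 62.3 and 110.4 CPM at day 2, 175, 174 and 179 CPM at day 4 and 46.4, 60.3 and 54.1 CPM at day 8. The day 4 libraries lay between, above all of day 2 and day 8, and the change at day 8 was -2.20 ± 0.20 (SE; adjusted p = 2.43e-06). Srsf1, the founding SR protein, had 535, 559 and 551 CPM in undifferentiated libraries, 190.0, 193 and 274 CPM at day 2, 338.5, 314.5 and 329 CPM at day 4 and 123.5, 135 and 148 CPM at day 8. It was lowest at day 8 in all 3 treatments, with a log2 fold change of -2.03 ± 0.11 (SE; adjusted p = 5.74e-08).

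The smallest fall among SR genes was that of Srsf4, with 101.5, 85.1 and 91.4 CPM at day 8 and 123, 123 and 112 CPM in undifferentiated libraries in the same treatments. The 2 stages did not overlap, and the log2 fold change was -0.37 ± 0.08 (SE; adjusted p = 0.00107). Srsf12 was low, at 1.77, 2.59 and 2.25 CPM at day 8 and 3.63, 2.80 and 3.02 CPM in undifferentiated libraries, and its change was -0.54 ± 0.28 (SE; adjusted p = 0.0965). Srsf2 (SC35, a marker of nuclear speckles) had log2 fold changes of -1.13, -0.86 and -1.07 at day 2, day 4 and day 8. Srsf5 and Srsf6 fell at day 2 and day 8 and did not pass the threshold at day 4, where their log2 fold changes were -0.03 and -0.09.

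The deposited mean transcript length was another readout, weighted by the level of each transcript within a gene. It could be tested for 40 of the 52 genes, within 7147 genes, and at day 8 it was longer for 0 of the 40 and shorter for 1, against 2.07% and 1.9% of all genes tested (limma on log2 length, adjusted p below 0.05). The 1 gene was Srsf6, whose mean transcript length was 3111, 3120 and 3149 bases in the day 8 naloxone, DAMGO and NC libraries, against 3302, 3274 and 3339 bases in undifferentiated libraries (adjusted p = 0.0101). The libraries of the 2 stages did not overlap, and day 4, at 3137 to 3187 bases, lay below the undifferentiated libraries and overlapped day 8 (adjusted p = 0.0327 against undifferentiated). Srsf6 has 3 annotated transcripts, and which of them changed was not resolved here.

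The Sm core genes, whose proteins form the ring on the small nuclear RNAs, were mixed. At day 8, 5 of 8 fell, Snrpn rose, and Snrpd2 and Snrpg did not pass the threshold, with a median of -0.59. The counts of Snrpg were not whole in any of the 14 libraries, so its level is uncertain. The summed level was 2474 ± 55.1, 1865 ± 157, 1705 ± 95.8 and 1430 ± 119 TPM in undifferentiated, day 2, day 4 and day 8 cells (SD, n = 3 libraries each). Snrpf had 84.3, 81.5 and 75.5 CPM in undifferentiated libraries with naloxone, DAMGO and NC, 38.6, 40.1 and 33.0 CPM at day 2, 33.5, 30.0 and 33.9 CPM at day 4 and 29.3, 37.1 and 37.3 CPM at day 8. All later libraries lay below the undifferentiated libraries and overlapped each other. Its day 8 change was -1.23 ± 0.12 (SE; adjusted p = 4.6e-06), and that of Snrpd1, at 45.7, 53.9 and 55.1 CPM at day 8 and 122, 117 and 119.9 CPM in undifferentiated libraries, was -1.22 ± 0.10 (SE; adjusted p = 1.02e-06). Snrpd2 had 107, 103 and 112 CPM at day 8 and 109.8, 106 and 105 CPM in undifferentiated libraries, which overlapped, with a log2 fold change of 0.00 ± 0.11 (SE; adjusted p = 0.982).

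Snrpb and Snrpn encode the 2 interchangeable Sm proteins B and N. Snrpn is an imprinted gene, expressed from the paternal copy and best known from brain (GRCm38 chr7:59982495-60140219, minus strand). Snrpn had 52.5, 51.0 and 49.1 CPM in undifferentiated libraries with naloxone, DAMGO and NC, 83.0, 84.4 and 77.0 CPM at day 2, 70.0, 68.8 and 76.6 CPM at day 4 and 78.8, 98.3 and 94.4 CPM at day 8. Snrpb had 202.5, 211 and 189 CPM, 139.5, 134 and 111 CPM, 106, 92.1 and 98.6 CPM and 128, 121 and 126 CPM at the same stages. For both genes every later library lay outside the range of the undifferentiated libraries, above it for Snrpn and below it for Snrpb.

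The log2 fold changes of Snrpn were 0.67, 0.49 and 0.82 ± 0.10 (SE; adjusted p = 2.16e-05) at day 2, day 4 and day 8, and it was the only 1 of the 52 genes that rose at all 3, as 21.7% of all genes tested did. Those of Snrpb were -0.66, -1.03 and -0.69 ± 0.08 (SE; adjusted p = 2.8e-05). The ratio of Snrpn to Snrpb in TPM was 0.134 to 0.143 in undifferentiated libraries, 0.333 to 0.380 at day 2, 0.363 to 0.431 at day 4 and 0.343 to 0.455 at day 8. Snrpb remained the higher of the pair in every library. Counts of Snrpn were not whole in any of the 14 libraries, so its level is uncertain to the extent that reads are shared with other transcripts.

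Of the 4 other genes of the U1 and U2 particles, Snrpb2 and Snrpa1, which form a pair on the U2 RNA, fell at day 8, and Snrpa and Snrpc, both of U1, did not pass the threshold. Snrpb2 had 68.9, 66.7 and 63.7 CPM in undifferentiated libraries with naloxone, DAMGO and NC, 43.1, 49.6 and 53.6 CPM at day 2, 44.5, 46.9 and 41.3 CPM at day 4 and 24.8, 33.2 and 33.0 CPM at day 8. It was lowest at day 8 without overlap, with a change of -1.15 ± 0.12 (SE; adjusted p = 7.09e-06). Snrpa1 had 66.3, 67.1 and 63.7 CPM, 35.7, 28.7 and 31.2 CPM, 40.1, 38.8 and 37.4 CPM and 45.1, 46.1 and 43.5 CPM at the same stages, so that it was lowest at day 2, and its day 8 change was -0.55 ± 0.08 (SE; adjusted p = 0.00014). The log2 fold changes of Snrpa and Snrpc at day 8 were -0.06 and -0.16, with SEs of 0.08 and 0.09.

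The SF3a complex is made of 3 subunits. Sf3a3 had 41.4, 53.0 and 49.1 CPM at day 8 with naloxone, DAMGO and NC, against 94.6, 90.6 and 91.7 CPM in undifferentiated libraries, a log2 fold change of -0.96 ± 0.12 (SE; adjusted p = 4.13e-05). Sf3a2 had 35.5, 28.0 and 27.2 CPM at day 8 and 39.0, 43.6 and 44.7 CPM in undifferentiated libraries, a change of -0.49 ± 0.12 (SE; adjusted p = 0.00294); its counts were not whole in any of the 14 libraries, so its level is uncertain. Sf3a1 had 143, 120.4 and 130.2 CPM at day 8 and 129, 138 and 123 CPM in undifferentiated libraries, which overlapped, with a change of 0.01 ± 0.10 (SE; adjusted p = 0.915).

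The SF3b genes split. Sf3b1 and Sf3b3 fell, Sf3b2 and Sf3b6 rose, and Sf3b4 and Sf3b5 did not pass the threshold at day 8. Sf3b1, the large subunit that clamps the branch site, had 628, 603 and 639 CPM in undifferentiated libraries with naloxone, DAMGO and NC, 225, 231 and 493 CPM at day 2, 586, 538 and 566 CPM at day 4 and 133, 168 and 174 CPM at day 8. The day 8 libraries lay below all others, and the day 2 NC library lay well above the day 2 drug libraries. The log2 fold change at day 8 was -1.99 ± 0.22 (SE; adjusted p = 1.14e-05), and at day 4 it was -0.15 ± 0.21 (SE; adjusted p = 0.554).

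Sf3b2, which joins SF3b to the RNA beside the branch site, had 502, 441 and 434.5 CPM at day 8 with naloxone, DAMGO and NC, against 348, 356 and 345 CPM in undifferentiated libraries, a change of 0.39 ± 0.06 (SE; adjusted p = 0.000252). Sf3b6, the small subunit that touches the branch adenosine, had 85.1, 106 and 98.5 CPM at day 8 and 72.3, 62.2 and 73.9 CPM in undifferentiated libraries, a change of 0.47 ± 0.13 (SE; adjusted p = 0.00751). Both were above the undifferentiated range in all 3 day 8 libraries; with limma on log2(TPM + 1) Sf3b2 still rose and Sf3b6 did not pass the threshold (adjusted p = 0.0756). Sf3b3 had 173, 155 and 141 CPM at day 8 and 228, 239.8 and 235 CPM in undifferentiated libraries, a change of -0.59 ± 0.08 (SE; adjusted p = 5.21e-05).

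**Figure D3:**
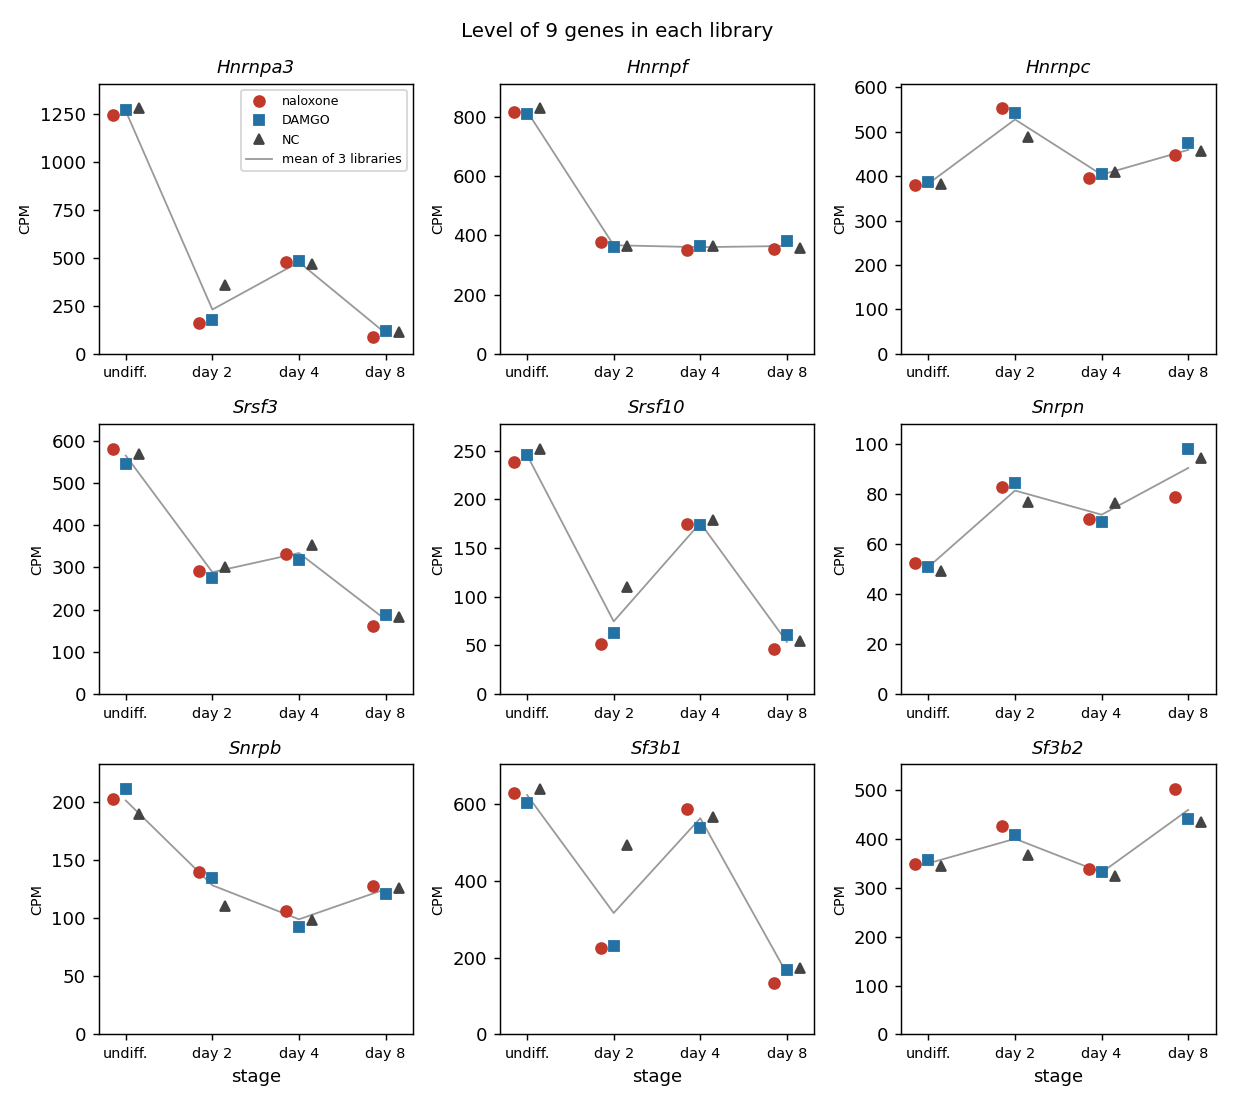
CPM of 9 genes in each of the 12 libraries (y axis from 0, points by treatment, line through the mean of the 3 libraries) by stage (x axis). Hnrnpa3, Srsf10 and Sf3b1 dip at day 2, are higher at day 4 and are lowest at day 8, Hnrnpf drops by day 2 and stays, and Snrpn, Hnrnpc and Sf3b2 lie above their undifferentiated level at day 8.

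The base composition of the libraries moved with the stages. The slope of log2 level on GC content across all genes, per 10 percentage points, was -0.57 to -0.49 in undifferentiated libraries, 0.47 and 0.36 in the day 2 naloxone and DAMGO libraries and -0.12 in the day 2 NC library, -0.31 to -0.29 at day 4 and 0.48 to 0.80 at day 8. The 52 genes have a median GC content of 46.7%, against 50.5% for genes tested, and across them the day 8 change had a Pearson r of 0.51 with GC content (points share libraries, so this is a description). With a smooth trend on GC content and length removed from each library, 42 of the 52 fell at day 8 and 5 rose, against 40.9% and 37.4% of all genes tested, with a median of -0.76 against -0.07. Of the 40 that fell before, 34 fell again. The 26 genes of higher GC content all fell, and of the 26 of lower GC content 16 fell and 5 rose. Before removal, the day 8 median of the 26 of lower GC content was -1.26, against -1.01 for all genes tested in that GC range. For the 26 of higher GC content it was -0.55, against 0.35.

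Single genes moved more than the count. With the trend removed, the day 8 log2 fold change of Sf3b1 was 0.00 and that of Srsf3 was -0.63, that of Hnrnpu was -0.32 and that of Hnrnph1 was -1.64. Snrpf and Snrpb2 no longer passed the threshold, at -0.14 and 0.12, Srsf7 rose by 0.52, and Sf3b2 fell by 0.14 in place of rising. Hnrnpa3 at -2.81, Hnrnpa1 at -1.78, Srsf1 at -1.90, Hnrnpf at -1.28 and Hnrnpd at -2.11 stayed large falls, Snrpb was at -1.55, and Hnrnpc and Snrpn rose by 1.31 and 1.28. The part of this trend in the changes was not tested.

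**Figure D4:**
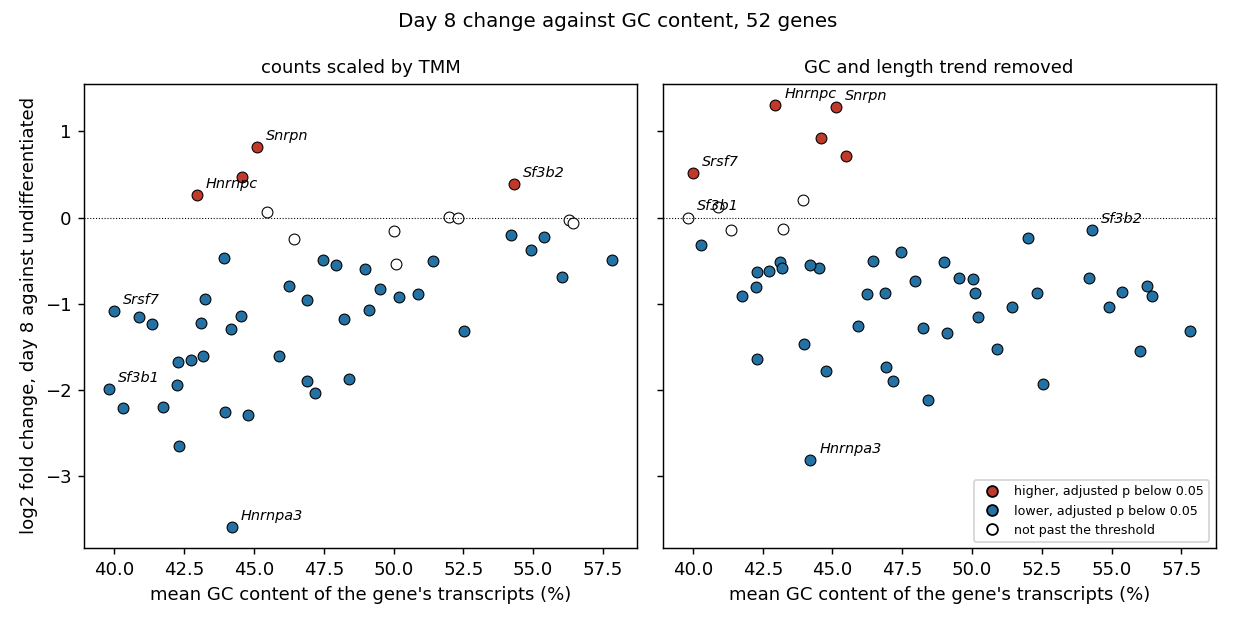
Log2 fold change at day 8 against undifferentiated (y axis) by mean GC content of a gene's transcripts (x axis, %) for the 52 genes, from counts scaled by TMM (left) and with a trend on GC content and length removed from each library (right). On the left the median is -1.26 for the 26 genes of lower GC content and -0.55 for the 26 of higher, and on the right -0.53 and -0.89, with a Pearson r of 0.51 on the left and -0.32 on the right; Sf3b1 sits at 0.00 on the right. All genes tested in the same GC ranges had medians of -1.01 and 0.35 with counts scaled by TMM.

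The earlier stages were compared next. At day 2, 37 of the 52 fell and 4 rose against undifferentiated (35.9% and 33.7% of all genes tested, 69.7% in either direction), with a median of -0.59 against -0.01 over all genes. At day 4, 36 fell and 1 rose (31% and 31.4% of all genes tested, 62.3% in either direction), with a median of -0.56 against -0.01. The 3 stage comparisons share the undifferentiated libraries. By gene, 30 of the 52 fell at all 3 stages, 6 fell at day 2 and day 8 and did not pass the threshold at day 4, 3 (Hnrnpc, Sf3b2 and Sf3b6) rose at day 2 and day 8 alone, and 4 passed at no stage. Of all genes tested these patterns held 19.2%, 9.97%, 5.45% and 7.11%.

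The largest change at day 2 was again that of Hnrnpa3, at -2.52 ± 0.23 (SE; adjusted p = 4.31e-06), followed by Srsf10 at -1.77 ± 0.19 (SE; adjusted p = 1.85e-05) and Hnrnpa2b1 at -1.54 ± 0.14 (SE; adjusted p = 4.81e-06). The mean level was lowest at day 8 for 28 of the 52, at day 4 for 16, at day 2 for 5 and in undifferentiated cells for 3, and it was highest in undifferentiated cells for 38.

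At day 4 against day 2, 18 genes rose and 12 fell (27.1% and 24.8% of all genes tested, 51.9% in either direction), and at day 8 against day 4, 10 rose and 27 fell (37.1% and 31.5%, 68.6% in either direction). Those that moved most were Srsf10, Hnrnpa3 and Hnrnph1 at day 4 against day 2, with log2 fold changes of 1.28, 1.12 and 0.93, and Hnrnph1, Hnrnpa3 and Sf3b1 at day 8 against day 4, with -2.22, -2.18 and -1.84. For 17 of the 52 every day 4 library was above every day 2 and every day 8 library, namely 8 SR genes, 7 hnRNP genes, Sf3b1 and Snrpd1, a share to be read beside the 17.4% of all genes tested with this pattern. Of the 17, 13 were among the 26 genes of lower GC content. Of those 26, 13 rose and 4 fell at day 4 against day 2, and 7 rose and 13 fell with the trend removed. Before removal their median was 0.25, against 0.54 for all genes tested in that GC range. With limma on log2(TPM + 1), 24 rose and 1 fell at day 4 against day 2, and 0 rose and 37 fell at day 8 against day 4 (36.2% and 11.9%, then 19.2% and 46.3% of all genes tested); that scale also shifted the median of all genes, to 0.20 and -0.29. Without the day 2 drug libraries, 5 rose and 2 fell at day 4 against day 2, against 9.71% and 11.9% of all genes.

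The drug comparisons asked whether naloxone or DAMGO changed these genes across stages; both share the NC libraries. No gene of the 52 passed the threshold for naloxone against NC, DAMGO against NC or naloxone against DAMGO with edgeR, nor did any of the 13144 genes tested (0% each). At an unadjusted p below 0.05 there were 5, 0 and 0 of the 52, and 1332, 314 and 229 of all genes; DESeq2, limma-voom and limma on TPM also called 0 of the 52 in each. In simulated data, naloxone against NC recovered 92.5% of 2-fold changes. The smallest p for naloxone was that of Srsf7, at -0.15 ± 0.06 (SE; adjusted p = 0.469), then Hnrnpr at -0.26 ± 0.10 (SE; adjusted p = 0.469) and Hnrnpll at -0.25 ± 0.10 (SE; adjusted p = 0.469). Srsf7 had 212.5, 211 and 239.5 CPM with naloxone, DAMGO and NC in undifferentiated libraries, 104, 110.3 and 119 CPM at day 2, 154, 151 and 159.6 CPM at day 4 and 96.3, 109.5 and 109.6 CPM at day 8. Hnrnpr had 228, 253.5 and 242 CPM in undifferentiated libraries, 147.5, 144 and 215 CPM at day 2, 241.5, 241 and 254.5 CPM at day 4 and 84.1, 108 and 105 CPM at day 8 in the same order of treatments. Hnrnpll had 235, 215 and 229 CPM in undifferentiated libraries, 75.02, 91.2 and 118 CPM at day 2, 102, 105 and 103 CPM at day 4 and 66.2, 73.2 and 85.2 CPM at day 8. For Hnrnpr and Hnrnpll the 3 treatments lay farthest apart at day 2, where NC was the highest.

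For DAMGO the smallest p was that of Srsf9, at 0.19 ± 0.09 (SE; adjusted p = 0.951), then Srsf11 at -0.21 ± 0.11 (SE; adjusted p = 0.951) and Sf3b1 at -0.35 ± 0.18 (SE; adjusted p = 0.951). Srsf9 had 80.3, 90.0 and 78.0 CPM with naloxone, DAMGO and NC in undifferentiated libraries, 64.2, 68.8 and 50.9 CPM at day 2, 43.0, 46.6 and 42.0 CPM at day 4 and 48.1, 42.1 and 43.6 CPM at day 8. Srsf11 had 301, 303 and 334 CPM in undifferentiated libraries, 119.5, 118 and 184 CPM at day 2, 214.5, 199 and 203 CPM at day 4 and 97.5, 105.5 and 105 CPM at day 8, and its day 2 drug libraries lay below the NC library. The smallest p for naloxone against DAMGO was that of Snrpb2, at -0.15 ± 0.10 (SE; adjusted p = 1), then Srsf2 at 0.07 and Hnrnpr at -0.12.

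At day 2 the 2 drug libraries differed from the NC library. With a term for day 2, 14 of the 52 were lower and 1 higher with naloxone (15% and 1.58% of all genes tested, 16.6% in either direction), and 13 were lower and 0 higher with DAMGO (9.63% and 0.403%, 10% in either direction). Each is 1 library against 1, with the spread taken from the other stages, and both rest on the same day 2 NC library. Sf3b1 had 225 CPM with naloxone and 231 CPM with DAMGO at day 2, against 493 CPM with NC, log2 changes of -1.14 ± 0.15 (SE; adjusted p = 0.000474) and -1.10 ± 0.15 (SE; adjusted p = 0.00393). Hnrnpa3 had 158 CPM with naloxone and 177 CPM with DAMGO, against 356 CPM with NC, changes of -1.18 ± 0.15 (SE; adjusted p = 0.000421) and -1.01 ± 0.15 (SE; adjusted p = 0.00399). Srsf10 had 51.2 CPM with naloxone and 62.3 CPM with DAMGO, against 110.4 CPM with NC, and Hnrnph1 had 198 CPM and 165 CPM with the drugs, against 332 CPM with NC.

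The 10 neuron markers summed to 813 CPM with naloxone and 1030 CPM with DAMGO at day 2, against 1920 CPM with NC, of which Map2 alone had 612, 826 and 1680 CPM. Elavl3, Snap25, Dcx, Syt1 and Gad1 were also lower with both drugs. Tubb3 (117 and 109 CPM, against 84.9 CPM with NC) and Rbfox3 (3.93 and 3.59, against 3.19) were higher. Stmn2 and Slc17a6 were near 0. The part of the neuron markers in the differences between the day 2 libraries was not tested.

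The 1 gene higher with naloxone at day 2 was Snrpd2, with 112.0 CPM against 82.6 CPM with NC, a change of 0.43 ± 0.12 (SE; adjusted p = 0.0322). Across the 52 genes the day 2 ratio of drug to NC had a Pearson r of 0.56 (naloxone) and 0.58 (DAMGO) with GC content, and the 2 drug libraries had another GC slope than the NC library, as given above. With the trend removed, 7 were lower and 8 higher with naloxone (11.1% and 3.1% of all genes tested), and 8 lower and 4 higher with DAMGO (4.85% and 1.09%). Of the 14 lower with naloxone before, 5 were lower in both fits, and of the 13 lower with DAMGO, 6 were. The 1 gene higher with naloxone was not higher in both. With the trend removed, the change of Sf3b1 was 0.01 with naloxone and -0.18 with DAMGO. Before removal, the median change of the 26 genes of lower GC content was -0.31 with naloxone, against -0.63 for all genes tested in that GC range. With DAMGO it was -0.42, against -0.52.

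The difference between the day 2 effect and the effect at the other stages was itself tested, a test chosen after seeing the data. It called 8 of the 52 lower and 1 higher for naloxone (10.5% and 0.449% of all genes tested, 11% in either direction) and 12 lower and 0 higher for DAMGO (5.36% and 0.152%, 5.52% in either direction). For DAMGO 0 were lower without the undifferentiated NC, the undifferentiated DAMGO, the day 4 NC or the day 4 DAMGO library, where 0% of all genes tested were lower. Without day 8 DAMGO 7 were lower, against 1.79% of all genes. In simulated data the day 2 comparison with naloxone recovered 22.4% of 2-fold changes and 83.3% of 4-fold changes. Those data took their spread from the additive fit, which counts day 2 gaps between drug and NC as spread. They also held no stage changes, so the recovery in the real data can differ from these rates.

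Over the other 3 stages, no gene of the 52 passed the threshold for either drug with edgeR (0% of all genes tested). At an unadjusted p below 0.05 there was 1 of the 52 for naloxone (Snrpg) and 0 for DAMGO. Of all genes tested there were 430 for naloxone and 180 for DAMGO. Log2 ratios of 1 drug library to the NC library of its stage had an SD over the 52 genes of 0.44 for naloxone and 0.42 for DAMGO at day 2. At the other stages it was 0.09 to 0.22 for naloxone and 0.11 to 0.13 for DAMGO. Over all genes tested the SD was also larger at day 2, at 0.62 for naloxone and 0.54 for DAMGO. It was 0.32 to 0.41 and 0.31 to 0.34 over all genes at the other stages. The interaction of drug with differentiation (day 2, day 4 and day 8 against undifferentiated) called 0 of the 52 for naloxone and 0 for DAMGO (0% of all genes; 0 of the 52 at an unadjusted p below 0.05 for either); the smallest p were those of Sf3a2, at 0.39 ± 0.22 (SE; adjusted p = 1), and Sf3b6, at 0.45 ± 0.26 (SE; adjusted p = 1).

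**Figure D5:**
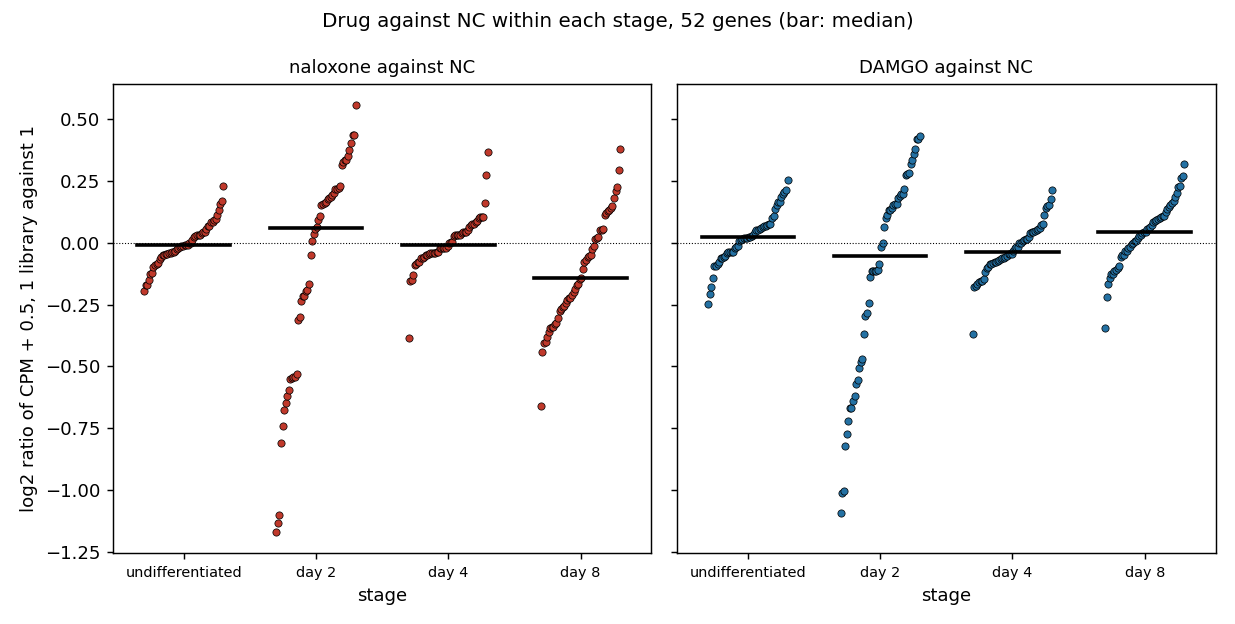
Log2 ratio of CPM + 0.5 in a drug library to the NC library of the same stage (y axis) for the 52 genes (points, sorted within a stage), for naloxone (left) and DAMGO (right), with the median as a bar. Points spread from -1.17 to 0.56 with naloxone and from -1.09 to 0.43 with DAMGO at day 2 and lie closer to 0 at the other stages.

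The reference libraries were compared last. None of the 52 passed the threshold for passage 13 against passage 8 with edgeR (0.0217% of 13855 genes tested did). An unadjusted p below 0.05 was found for 0 of the 52 and for 645 of all genes tested. Of the 52, 39 had a negative log2 change, with a median of -0.09. Of all genes tested 7237 had a negative change, with a median of -0.01. The smallest p were those of Snrpa1, with 66.3 CPM at passage 13 and 82.2 CPM at passage 8, Srsf2, with 401 CPM at passage 13 and 466 CPM at passage 8, and Srsf4, with 133 CPM at passage 13 and 112 CPM at passage 8, all with an adjusted p of 1. For the undifferentiated libraries of the drug experiment against the passage 8 reference, 0 of the 52 passed (0.433% of genes tested did). An unadjusted p below 0.05 was found for 6 of the 52, against 1634 of the 13855 genes tested. The smallest p was that of Srsf2, at 366, 374 and 360 CPM in the naloxone, DAMGO and NC libraries and 466 CPM in the reference, a change of -0.35 ± 0.09 (SE; adjusted p = 0.135), and the others were Hnrnpf at -0.29 and Srsf7 at -0.30.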

How the data were processed

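Total RNA was taken with Trizol and made into TruSeq libraries, per the labels' protocols. Per the file headers, the deposited values per gene and library are a mean transcript length in bases, an expected count (reads assigned by RSEM), a TPM and a deposited FPKM. Bowtie, RSEM and the mm10 build are named in the submitters' processing notes; their versions are not given in the sources. FPKM values were not used. A count that is not whole (tolerance 0.001) marks reads that RSEM divided between genes or transcripts.

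Expected counts were rounded to whole numbers and tested with edgeR 4.0.16 (R 4.3.3): TMM scaling, a filter on low counts by stage, a quasi-likelihood fit with stage and treatment terms (6 residual degrees of freedom), and Benjamini-Hochberg adjustment over all 13144 genes tested, with a threshold of 0.05. Day 2 drug effects and interactions came from models with 4 residual degrees of freedom, and reference comparisons from all 14 libraries (13855 genes). The script was tested on simulated data, which had the same mean at every stage for each gene and the spread of the additive fit. Alternatives used DESeq2 1.42.0, limma 3.58.1 (voom, and log2 of TPM plus 1 or 0.1), DESeq2 size factors, no filter, a 1.5-fold minimum, other model terms, each library left out, and removal of a smooth trend on GC content and length (mgcv 1.9.3). Transcript length, the fit without both day 2 drug libraries, differences within a treatment and the test of each drug effect at day 2 against the other stages were chosen after seeing the data. GC content was averaged over GENCODE transcripts, and promoters are RefSeq's.

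The genes and lists were chosen with earlier results of these data known. Values in the libraries compared are given for the 2 highest and 2 lowest changes per family at day 8, genes that moved against their family, the largest changes of the other stage comparisons, the smallest p of the drug and passage comparisons, and Snrpn and Snrpb; others named outside this rule, such as Hnrnpa1, Hnrnpf and Srsf3, were chosen after their values were seen. The limit of 3 counts covers counting error only.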

Additional observations from a re-analysis of the deposited data

Results flagged for a closer look

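For 9 genes with naloxone and 12 with DAMGO, the effect of the drug at day 2 differed from its effect at the other stages in a test of that difference (edgeR, adjusted p below 0.05). Of all 13144 genes tested, 59 were higher and 1382 lower with naloxone, and 20 and 705 with DAMGO. With the GC and length trend removed, 4 of the 52 were higher and 5 lower with naloxone, and 1 and 4 with DAMGO. For DAMGO 0 were called on either TPM scale. The same held without the undifferentiated NC, undifferentiated DAMGO, day 4 NC or day 4 DAMGO library. Values are the log2 effect at day 2 minus that at the other stages. With naloxone it was -1.08 for Hnrnpa3, -1.03 for Sf3b1, -1.01 for Srsf10, -0.76 for Hnrnpu, -0.68 for Hnrnph1, -0.56 for Srsf11 and for Hnrnpm, -0.49 for Srsf5 and 0.94 for Snrpg. With DAMGO it was -1.10 for Hnrnph1, -1.06 for Hnrnpa3, -1.03 for Sf3b1, -0.87 for Hnrnph2, -0.84 for Srsf10, -0.76 for Hnrnpu, -0.69 for Srsf5, -0.68 for Hnrnpm, -0.65 for Hnrnpdl, -0.64 for Hnrnpa2b1 and -0.58 for Srsf11 and for Hnrnpr. Both drugs share 1 day 2 NC library, and the GC slope of the day 2 drug libraries differed from that of the NC library. The summed neuron markers were also lower in both day 2 drug libraries (813 and 1030 CPM) than in the NC library (1920 CPM). Most of that sum was Map2 (612, 826 and 1680 CPM), while Tubb3 and Rbfox3 were higher with both drugs. The part of the shared library, the GC slope and the neuron markers in the values was not tested. The counts of Snrpg were not whole in any of the 14 libraries, so its value is uncertain.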

How the results depend on the processing

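Of the counts of the 52 genes, those that fell at day 2, day 4 and day 8 against undifferentiated stayed within 1.5 times of the main count under every alternative run. Leaving out 1 library gave, higher and lower, 2 to 9 and 34 to 37 at day 2, 1 to 1 and 34 to 38 at day 4, 4 to 4 and 38 to 40 at day 8, 14 to 20 and 8 to 18 at day 4 against day 2, and 6 to 11 and 25 to 27 at day 8 against day 4. The day 2 rises were 2 without undifferentiated naloxone, day 2 naloxone or day 2 DAMGO and 9 without day 2 NC, and the day 8 against day 4 rises were 6 without day 4 DAMGO or day 8 NC. In those runs 30.3%, 31.3%, 30.5% and 35.9% of all genes tested rose at day 2, and 33.2% and 33.5% at day 8 against day 4. For the day 2 drug effects, leaving out 1 library gave 0 to 10 and 14 to 15 with naloxone (10 higher without day 8 naloxone) and 0 to 5 and 13 to 19 with DAMGO (5 higher without day 8 naloxone). Without day 8 naloxone, 8.18% of all genes were higher and 19.5% lower with naloxone, and 5.07% and 16.2% with DAMGO. For day 2 against the other stages, leaving out 1 library gave 0 to 4 and 5 to 14 with naloxone (14 lower without day 8 naloxone, 5 without day 4 NC or day 4 naloxone) and 0 to 3 and 0 to 18 with DAMGO. Of all genes, 17% were lower with naloxone without day 8 naloxone, and 7.01% and 8.26% without day 4 NC and day 4 naloxone. With DAMGO, 13.7% were lower without day 8 naloxone. All other comparisons gave 0 to 0. The day 2 drug effects cannot be estimated without the day 2 NC library.

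Rises at day 2 were 7 with the GC and length trend removed, 1 with a 1.5-fold minimum and 2 without the day 2 drug libraries. In those runs 31.1%, 23.9% and 26.9% of all genes tested rose at day 2. Rises at day 4 were 3 with either TPM scale, 4 with the trend removed and 0 with a 1.5-fold minimum. Of all genes, 37.5% and 37% (TPM scales), 33.2% (trend removed) and 22.9% (1.5-fold) rose at day 4. Rises at day 8 were 2 with either TPM scale and 1 with a 1.5-fold minimum. Of all genes, 33.5% and 33.3% (TPM scales) and 33.1% (1.5-fold) rose at day 8. At day 4 against day 2, rises were 9 with a 1.5-fold minimum and 5 without the day 2 drug libraries, and falls were 1 with either TPM scale, 2 with a 1.5-fold minimum and 2 without the day 2 drug libraries. At day 8 against day 4, rises were 0 with either TPM scale and 1 with a 1.5-fold minimum. Of all genes, 19.2% and 18.4% (TPM scales) and 24.7% (1.5-fold) rose in that comparison.

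For naloxone at day 2, genes called higher were 4 with DESeq2 size factors, 0 with DESeq2, either TPM scale or a 1.5-fold minimum, 2 with no filter and 8 with the trend removed, and genes called lower were 9 with DESeq2 or a 1.5-fold minimum and 7 with the trend removed. Of all genes, 4.82% (size factors), 0.791% (DESeq2), 0.243% and 0.236% (TPM scales), 0.38% (1.5-fold), 1.21% (no filter) and 3.1% (trend removed) were higher. Lower were 9.37% (DESeq2), 13.6% (1.5-fold) and 11.1% (trend removed). For DAMGO at day 2, genes called higher were 1 with size factors or limma-voom and 4 with the trend removed, and genes called lower were 8 with the trend removed. Of all genes, 1.55% (size factors), 0.639% (limma-voom) and 1.09% (trend removed) were higher, and 4.85% (trend removed) were lower. For naloxone at day 2 against the other stages, higher calls were 2 with size factors, 0 with DESeq2 or either TPM scale and 4 with the trend removed, and lower calls were 5 with size factors, the trend removed or a 1.5-fold minimum, 4 with DESeq2 and 13 with no filter. Of all genes, 1.23% (size factors), 0.259% (DESeq2), 0.0609% and 0.038% (TPM scales) and 1.28% (trend removed) were higher. Lower were 8.45% (size factors), 6.25% (trend removed), 10.1% (1.5-fold), 5.42% (DESeq2) and 8.34% (no filter). For DAMGO in the same test, calls were 1 higher and 4 lower with the trend removed, 7 lower with size factors or DESeq2 and 0 lower with either TPM scale. Of all genes, 0.396% were higher and 2.12% lower with the trend removed. With size factors, DESeq2 and either TPM scale, 2.33%, 3.01% and 0% were lower.

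All 16 reversals came with the GC and length trend removed; the cause was not tested. At day 2 the log2 fold change was then 0.50 for Snrpb2, 0.24 for Hnrnpk, 0.18 for Srsf7, -0.19 for Sf3b2 and 0.27 for Sf3b1. At day 8 it was 0.12 for Snrpb2, 0.21 for Hnrnph3, 0.52 for Srsf7, -0.14 for Sf3b2, 0.00 for Sf3b1 and 0.49 for Magohb. With naloxone at day 2 it was 0.01 for Sf3b1, 0.01 for Hnrnpdl, 0.27 for Hnrnpu and -0.12 for Snrpd2, and with DAMGO at day 2 it was 0.19 for Hnrnpu. No paired analysis was possible because the labels carry no replicate numbers to use as a block; stage is already a term of the drug comparisons and treatment of the stage comparisons.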

Other observations

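Other parts of the splicing machinery were followed at day 8 against undifferentiated in lists that hold none of the 52 genes. Of 15 genes of U1 and branch site recognition, 12 fell and 2 rose, with a median log2 fold change of -0.66; Luc7l3, a U1 associated factor, was at -2.85, the helicase gene Ddx46 at -2.65 and Tia1, which helps U1 to bind weak sites, at -2.49. Of 20 SR kinases, import factors and SR-related genes, 15 fell and 1 rose (median -0.88), among them Srek1 at -2.76, Rsrc2 at -2.42 and Tra2b at -1.81. Of 22 other genes of the hnRNP kind, 17 fell and 2 rose (median -0.89), among them Matr3 at -3.15, Syncrip at -2.60 and Tardbp, which encodes TDP-43, at -1.94. Of 16 genes of Sm ring assembly, 11 fell and 1 rose (median -0.45), with Gemin6 at -2.52, Ddx20 at -2.36 and Tgs1 at -1.92. Of 10 Lsm genes, 7 fell and 2 rose (median -0.74), with Lsm8 at -1.87, Lsm5 at -1.82 and Lsm2 at -1.58. All genes tested had a median of 0.05, and 38.5% fell and 41.6% rose.

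Other lists were counted in the same way. Of 16 tri-snRNP genes 7 fell and 4 rose (median -0.05), with Ppih at -1.51, Prpf3 at -1.08 and Eftud2, the U5 GTPase, at 1.07. Of 22 genes of the Prp19 complex and catalytic steps 11 fell and 3 rose (median -0.15), with Cwc22 at -2.81, Crnkl1 at -1.23 and Cdc5l at -1.08. Of 9 exon junction genes 5 fell and 1 rose (median -0.36), with Pnn at -3.29, Magohb at -1.26 and Sap18 at 0.79, and of 11 minor spliceosome genes 6 fell and 4 rose (median -0.41), with Rnpc3 at -2.12, Snrnp48 at -1.94 and Armc7 at 1.58. Of 23 neural and tissue regulators that passed the filter, out of 28, 13 fell and 7 rose (median -0.45): Khdrbs2 was at 5.70, Srrm4, which promotes neural microexons, at 3.83, and Elavl4, a neuronal Hu protein, at -3.94. In undifferentiated libraries Khdrbs2 and Srrm4 had means of 0.126 and 0.666 CPM, near or below the 0.518 to 0.604 CPM of 3 counts, so the size of their rise is uncertain. Khdrbs2 was at 23.7 CPM at day 4 and 7.53 CPM at day 8. With the GC and length trend removed, the genes that fell and rose were 14 and 0 of the U1 and branch site list (median -1.04), 12 and 2 of the SR kinase list (-0.42), 18 and 2 of the hnRNP kind (-0.96), 10 and 0 of Sm ring assembly (-0.56) and 5 and 1 of the Lsm genes (-0.56). They were 11 and 4 of the tri-snRNP genes (-0.36), 12 and 4 of the Prp19 list (-0.36), 5 and 3 of the exon junction genes (-0.22), 5 and 2 of the minor spliceosome (-0.22) and 11 and 9 of the neural regulators (-0.32), against 40.9% and 37.4% of all genes. Tra2b was at -0.17, Lsm5 at -0.19, Tgs1 at -0.11 and Rnpc3 at -0.05 on that scale, none past the threshold.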
